A study of Capra hircus with 12 samples.

Results

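Among the well expressed genes of goat blood, 200 varied least between animals when each gene was measured as its share of the reads of a library. They were chosen from raw read counts in whole blood of 12 goats. Counts were expressed per 1000000 reads assigned to genes (CPM), and the 100 genes with the highest mean CPM were set aside. Of the 27271 gene identifiers in the files, 7673 others had a mean of 10 CPM or more. These 7673 are called the ranked genes here, and the 200 with the smallest standard deviation (SD) of log2(CPM + 1) over all 12 goats are the stable genes. The SD itself, and everything that follows from it, is therefore a description and not a finding. The groups of goats played no part in the choice.

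The goats were female Carpathian goats, a Polish breed, and the study compared 6 with low and 6 with high proviral load of small ruminant lentiviruses. Proviral load is how much viral DNA the genomes of host cells carry, and the animals had been selected on it. No uninfected group and no treatment is among the samples, and the ages are not given in the labels. Each goat gave 1 library, and goats are named by their group and their number in the labels. The libraries held 6894973 to 19204978 reads assigned to genes, with the fewest in high 27, high 6 and low 15.

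Small ruminant lentiviruses are retroviruses of the monocyte and macrophage lineage and cause slowly developing disease of joints, udder, lung and brain. Whole blood is a mixture of neutrophils, lymphocytes, monocytes, other leukocytes, platelets and red cells, and its proportions differ between animals. Genes used by most cell types, such as those of protein breakdown, splicing or translation, are one source of reference genes, to which other transcripts are scaled. In bulk blood, fewer cells of a type and less RNA per cell cannot be told apart. The gene table at hand holds 0 of the 27271 identifiers, so none of the 200 stable genes could be given a name, a function or a position. Nor could the labelled tissue be checked against blood cell markers.

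The stable genes spanned the whole range of levels that the rule admits. Their mean level ran from 10.5 to 1155 CPM with a median of 105.7 CPM, against a median of 41.9 CPM over the ranked genes. CPM is not corrected for gene length, so these are read shares and not numbers of transcripts. Stable genes made up 0.708% of the ranked genes with a mean of 10 to 20 CPM (13 of 1836) and 5.92% of those with 200 CPM or more (52 of 879). The share rose through the classes between them, from 1.66% at 20 to 50 CPM and 2.48% at 50 to 100 CPM to 5.73% at 100 to 200 CPM.

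The SD of log2(CPM + 1) over the goats ran from 0.09 to 0.21 in the stable genes, with a median of 0.18, and had a median of 0.47 over the ranked genes. Between the goat with the most and the goat with the least, a stable gene differed 1.19-fold to 1.79-fold, with a median of 1.52-fold. The median was 3.01-fold over the ranked genes for which the ratio exists. All 200 stable genes thus stayed within 2-fold over the 12 goats, as did 961 of the 7673 ranked genes (12.5%). The rule cuts through a continuous range. The last gene inside had an SD of 0.2077 and the first outside 0.2079, and their CPM differed 1.53-fold and 1.59-fold between the extreme goats.

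**Figure D1:**
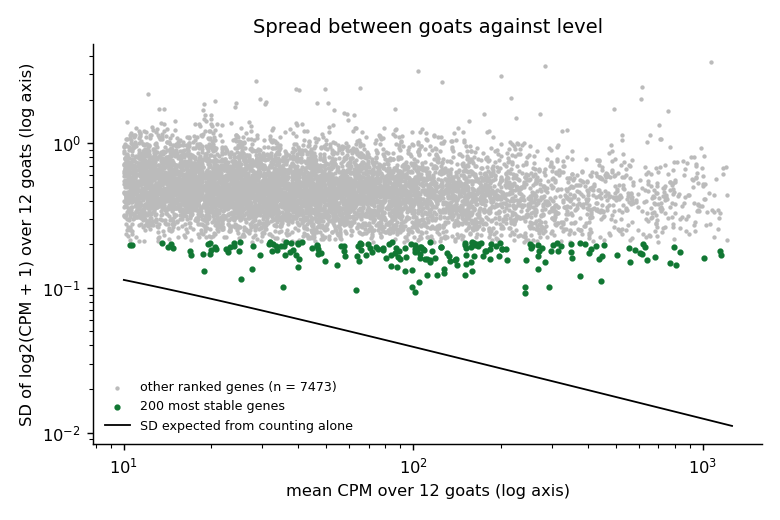
Mean CPM over 12 goats (x axis, log scale) against the SD of log2(CPM + 1) over the same goats (y axis, log scale), 1 point per gene, for the 200 stable genes (green) and the other ranked genes (grey). The line is the SD that counting reads alone would give at that level, and it lies below all stable genes, which have SDs of 0.09 to 0.21.

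Little of the spread that remained was counting error. Every stable gene had at least 62 reads in every library, and the median of the lowest count was 744 reads. Counting alone accounted for 0.421% to 43.2% of the variance of a stable gene, with a median of 5.38%, and in 0 of 200 for more than 50%. This part counts each read as independent. Without molecular identifiers several reads can come from 1 molecule, so it covers counting error only.

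The stable gene with the smallest SD was ENSCHIG00000000319 (SD 0.09). It measured 219 CPM at the lowest, 245 at the median and 263 at the highest in low-load goats, and 215, 246 and 261 CPM in high-load goats. Its extremes were high 27 and low 30, and the ranges of the groups overlapped almost fully. ENSCHIG00000014326 came next, also with an SD of 0.09. It measured 96.6, 103 and 109 CPM (lowest, median and highest) in low-load goats and 88.8, 99.7 and 112 CPM in high-load goats. High 33 was the lowest and high 6 the highest, so the high-load goats held both ends and the low-load goats lay between them.

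As shares of reads, the stable genes were level in all 12 goats. The summed share of the 200 genes was 3.39% of gene reads at the lowest (high 6) and 3.73% at the highest (low 25), a ratio of 1.101 between the extremes. It averaged 3.55% ± 0.0944 in the high-load goats and 3.64% ± 0.0562 in the low-load goats (SD, n = 6 each), and the ranges of the groups overlapped. The difference, high minus low, was -0.0854 percentage points, and -0.0519 without high 6. Over the same goats, the summed share of the 100 most abundant genes that had been set aside ran from 20.1% to 31.6%. It was highest in high 27, low 15 and high 6.

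Goats differed in how closely they followed the average of the stable genes. In high 32, 159 of 200 stable genes lay within 1.1-fold of their own mean over the 12 goats, where 31.6% of the ranked genes did. In low 15 only 80 of 200 did, against 10.5% of the ranked genes. Low 15 held the lowest value of 40 stable genes and the highest of 27, and high 6 the lowest of 40 and the highest of 10. High 32 held the lowest value of 2 stable genes and the highest of 8. Low 15 thus strayed in both directions, with 93 of 200 above their own mean, while high 6 lay mostly below, with 63 above, and so did high 8, with 72. The median deviation over the stable genes was between -0.08 (high 6) and 0.07 (low 30) in each goat on the log2 scale.

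What variation was left in the stable genes was shared less than that of other genes. With each gene brought to unit variance, the first principal component over goats held 21.3% of the variance in the stable genes and 46.4% in the ranked genes. The median correlation between pairs of genes over the 12 goats was 0.06 in the stable genes and 0.23 in the ranked genes. The rule passes over genes that follow a large shared shift on these same values, so both contrasts are descriptions. Counting alone was a median of 5.38% of a gene's variance in the stable genes and 1.52% in the ranked genes. Along the first component of the stable genes low 15, high 6 and high 27 lay together on one side, with low 26 just beyond zero on the same side. There, 82 stable genes were higher and 118 lower. These 3 goats also had the fewest gene reads, and the part of depth in the pattern was not tested. Records with several alignments made up 17.3%, 20.8% and 21.0% of all in them and 13.8% to 18.2% in the others. Low 26, at 18.2%, lay on the same side of the component as these 3 goats, and low 30, at 17.3%, on the other. The part of this share in the pattern was not tested either.

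The same genes were not level on a scale set by the bulk of genes. Trimmed mean of M values (TMM) factors rescale each library so that the typical gene stays constant, in place of the total. They ran from 0.715 (low 15) and 0.747 (high 27) to 1.21 (low 30), a ratio of 1.69, where factors computed from the summed reads of the stable genes spanned a ratio of 1.101. On the TMM scale the median SD of the stable genes was 0.28 in place of 0.18, and the SD was larger than on library totals in 185 of 200. The larger SD was found in 32.5% of the ranked genes, whose median SD was smaller on the TMM scale (0.41) than on totals (0.47). Choosing genes for a small SD on totals favours a larger SD on any other scale, so this contrast is a description.

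**Figure D2:**
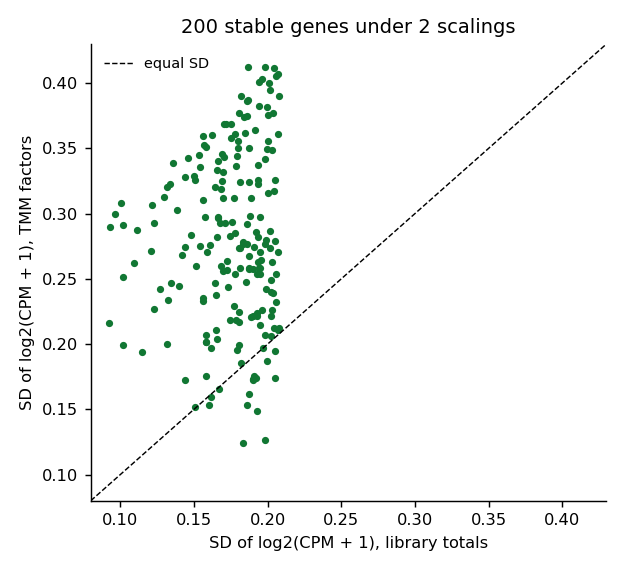
SD of log2(CPM + 1) over 12 goats for each of the 200 stable genes, with library totals (x axis) and with TMM factors (y axis); the dashed line marks equal SD. Of the 200 points, 185 lie above the line, and the largest SD on the TMM scale is 0.41.

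A gene that is level on library totals must move against the TMM factor, so the direction of the following values is set by arithmetic and their size by the spread of the factors. On the TMM scale the stable genes moved as a block. In high 27, 198 of 200 stable genes lay above their own mean over the goats, with a median deviation of 0.39 on the log2 scale. In low 15 there were 197, with a median deviation of 0.45. At the other end, 12 were above their mean in low 12 (median deviation -0.24), 14 in high 33 (-0.18) and 18 in low 30 (-0.20). Among the ranked genes the share above their own mean stayed between 45.0% and 57.2% in every goat. On library totals it was the ranked genes that moved, with a median deviation of -0.43 in low 15 and -0.43 in high 27, where the stable genes had -0.03 in both. Read counts give relative levels only. Whether the 200 genes held their level while many others were lower in these 2 goats, or rose while the others held theirs, cannot be told apart.

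**Figure D3:**
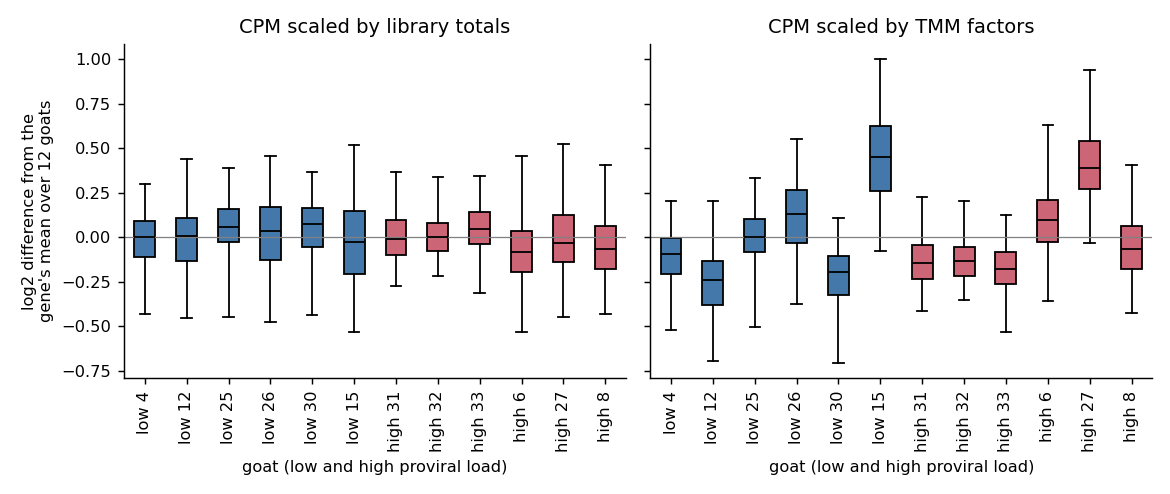
Log2 difference of each of the 200 stable genes from its own mean over 12 goats, by goat (low load blue, high load red), with library totals on the left and TMM factors on the right; boxes show the median and quartiles, and whiskers the full range. With totals all medians lie between -0.08 and 0.07, and with TMM factors low 15 (0.45) and high 27 (0.39) stand above the rest.

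The 2 most stable genes showed this in single values. On the TMM scale ENSCHIG00000000319 was at 344 CPM in low 15 and 288 CPM in high 27, and at 205 to 265 CPM in the other 10 goats. ENSCHIG00000014326 was at 152 CPM in low 15, 127 in high 6 and 125 in high 27, against 75.9 to 111 CPM in the other 9. On library totals high 6 and low 15 had been its highest goats, at 112 and 109 CPM, and high 27 the second lowest, at 93.0 CPM.

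On the TMM scale all stable genes followed the main axis of variation in the blood profiles, which mostly set high 27 apart. That axis, the first principal component of log2 CPM over the tested genes that are not among the 200, held 42.4% of the variance. High 27, the library with the fewest gene reads, scored 152 on it, and the other goats -53.2 (low 12) to 28.5 (low 26). All 200 stable genes correlated positively with the axis, at a median r of 0.68 over the 12 goats. Of the ranked genes 49.6% did, at a median r of -0.01. The median share of a stable gene's variance along the axis was 45.7%, against 27.9% in the ranked genes. On library totals 99 of 200 stable genes correlated positively, and the median share was 9.33%, against 33.6%. The axis was computed from TMM-scaled values, also where values on library totals were set against it. High 27, far out on the axis, had a TMM factor of 0.747, and genes level on totals must rise there on the TMM scale. The shared sign on that scale thus largely follows from how the genes were chosen and scaled. The points share their libraries, depths and scaling factors, so these correlations are descriptions.

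Which genes count as most stable depended on this scaling, and TMM factors gave the smallest overlap of the 29 other settings run. Repeating the rule with TMM factors chose 16 of the 200 again, with DESeq2 size factors 17, and with upper-quartile factors 45. Members held ranks 16 to 3942 among the 7643 genes ranked with TMM factors, with a median of 1392. The 200 genes that the TMM scale chose had a median SD of 0.17 on that scale and of 0.30 on totals. Within each list the ratios between genes were similarly steady. Scaling touches the SD of the log2 ratio between genes only through the pseudocount. The median of this SD over gene pairs was 0.24 in the stable genes, 0.22 in the list chosen with TMM factors and 0.60 over the ranked genes. Small SDs of single genes bound the SD of their ratio. Both lists were chosen for small SDs, so these values are a description. Ranking genes by the mean SD of their log2 ratios to all other ranked genes chose 30 of the 200.

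Single libraries mattered as well. The rule chose 128 of the 200 again without low 15, 150 without high 6, 150 without high 27 and 166 to 190 without any other single goat. It chose 92 without high 6 and high 27, and 48 without low 15 as well. In those 9 goats, lists chosen with library totals and with TMM factors shared 59 of 200 genes, against 16 in the 12 goats. Among the settings that kept the totals and the goats, a pseudocount of 0.1 chose 192 again, a minimum of 20 CPM 187 and of 50 CPM 146, the coefficient of variation 182 and the SD within groups 165, while the median absolute deviation chose 62.

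**Figure D4:**
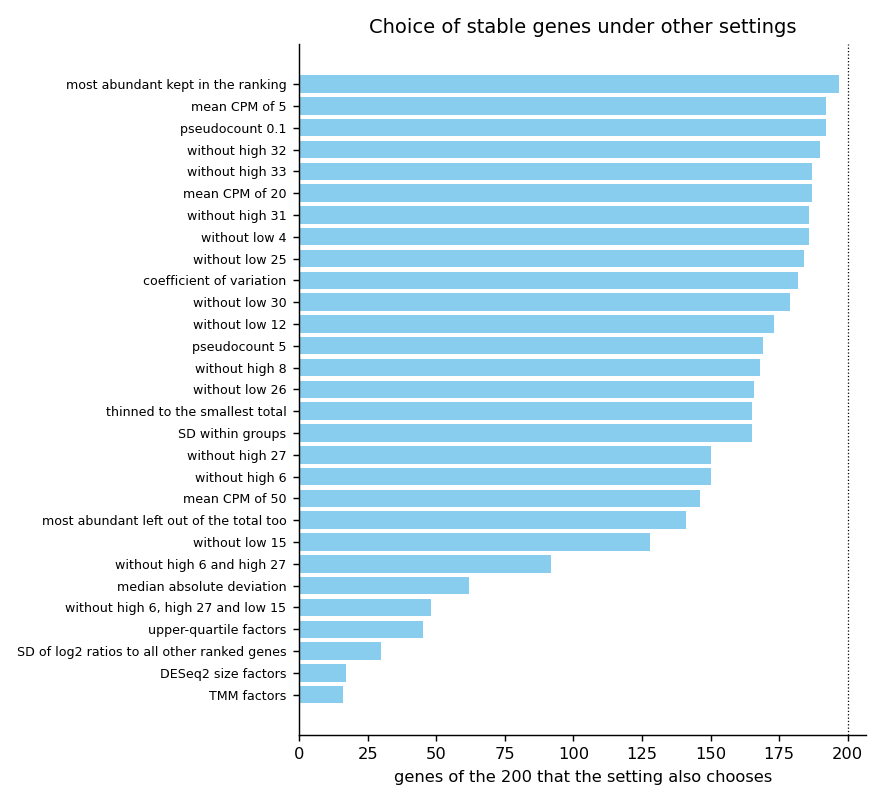
Number of the 200 stable genes that the rule chose again under each of 29 other settings (bars), with the dotted line at 200. The lowest bars are TMM factors (16), DESeq2 size factors (17) and log2 ratios (30), and the highest is the ranking that keeps the most abundant genes (197).

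A stable gene was chosen again in 22 of the 29 other settings at the median, and in 6 at the fewest. A core of 16 stable genes was chosen with totals and with all 3 sets of factors. The following pair, ENSCHIG00000013538 and ENSCHIG00000026013, was picked out after its values were seen because all 29 settings chose it. ENSCHIG00000013538 measured 61.5, 81.1 and 87.3 CPM (lowest, median and highest) in low-load goats and 71.4, 83.6 and 93.6 CPM in high-load goats, with an SD of 0.16 on totals and 0.15 on the TMM scale. ENSCHIG00000026013 measured 379, 456 and 483 CPM in low-load and 365, 462 and 526 CPM in high-load goats, with an SD of 0.17 on either scale. In both genes low 15, high 6 and high 27 held the 3 lowest values, and the groups overlapped.

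No stable gene differed between goats of high and low proviral load past the threshold. In edgeR's quasi-likelihood test with TMM factors and Benjamini-Hochberg adjustment over 12941 genes, 0 of 200 had an adjusted p under 0.05. Over all tested genes 0% were called. Before adjustment, p was under 0.05 in 1 stable gene (0.5%) and in 2.45% of the tested genes. With library totals in place of TMM factors it was in 0, where 1.63% of the tested genes reached it. DESeq2 and limma-voom, with and without sample quality weights, also called 0 stable genes after adjustment. Of the tested genes limma-voom with those weights called 0.131%, and 17.9% had an unadjusted p under 0.05, with 12 stable genes among them. The stable genes below that p were 1 in DESeq2 (3.62% of the tested genes) and 0 in limma-voom without weights (2.76%). The rule limits how large a difference between groups can be, because it bounds the spread over all goats. It does not fix how that spread is divided between and within groups.

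The log2 fold changes of the stable genes, high minus low, ran from -0.23 to 0.33 with a median of -0.02, beside a median of -0.01 over the tested genes. They were above 0 in 94 of 200, and in 48.6% of the tested genes. The 95% interval lay within 2-fold in either direction for 200 of 200 stable genes (62.2% of the tested genes) and within 1.5-fold for 157 (19.6%). It stayed below 0.32 in size on the log2 scale for 1, ENSCHIG00000019556 (-0.30 to 0.31), named for its interval, and for 0.0541% of the tested genes. Choosing genes for small spread also favours narrow intervals, so these counts are a description. The tested genes include genes below the 10 CPM minimum of the rule. The median SE was 0.30 in the tested, 0.24 in the ranked and 0.19 in the stable genes.

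**Figure D5:**
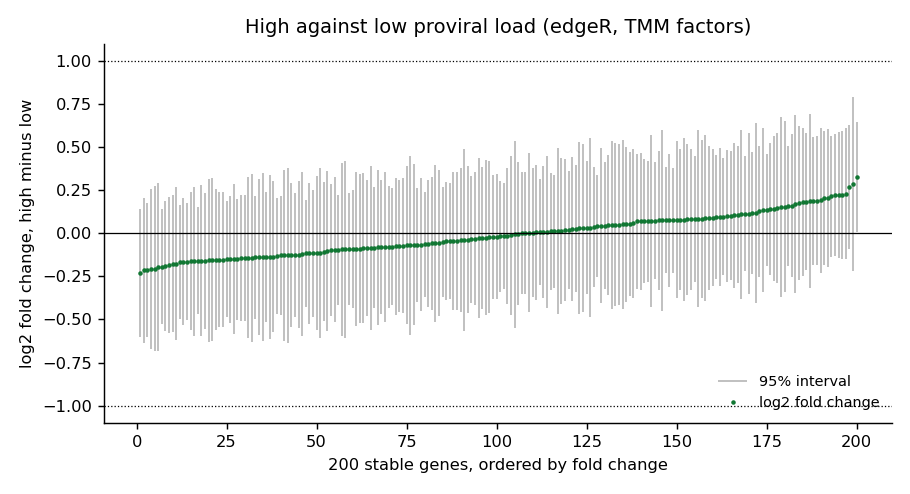
Log2 fold change of each of the 200 stable genes between high-load and low-load goats (points) with its 95% interval (bars), from edgeR with TMM factors, ordered by size; dotted lines mark 2-fold. The points run from -0.23 to 0.33, and all intervals stay inside the dotted lines.

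The stable gene with the smallest p was ENSCHIG00000011901, chosen for that p among the 200. On library totals it measured 28.0, 36.9 and 43.1 CPM (lowest, median and highest) in low-load goats and 42.4, 43.1 and 48.1 CPM in high-load goats. All 6 high-load goats lay above the low-load median and 3 above every low-load goat, and only low 30 reached the range of the high-load goats. The log2 fold change was 0.33 ± 0.15 (SE), with an interval from 0.01 to 0.65 and an edgeR adjusted p of 0.9999. The second among the higher genes was ENSCHIG00000024272, at 27.7, 30.7 and 39.6 CPM in low-load and 31.8, 38.9 and 40.6 CPM in high-load goats. All 6 high-load goats again lay above the low-load median, and the log2 fold change was 0.27 ± 0.17 (SE), with an edgeR adjusted p of 0.9999.

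Among the lower genes, ENSCHIG00000024140 had the smallest p. On library totals it measured 59.0, 62.6 and 64.0 CPM in low-load goats and 39.5, 55.2 and 58.8 CPM in high-load goats, so the groups did not overlap. On the TMM scale they did, since high 27 rose to 65.7 CPM and low 12 fell to 49.7 CPM. Its log2 fold change was -0.23 ± 0.17 (SE), also with an edgeR adjusted p of 0.9999. It was the 1 stable gene without overlap on totals, where 0.124% of the tested genes had none, and on the TMM scale there were 0 (0.155% of the tested genes). ENSCHIG00000027146 followed, at 166, 184 and 205 CPM in low-load and 140, 162 and 182 CPM in high-load goats. On library totals all 6 high-load goats lay below the low-load median and 3 below every low-load goat. On the TMM scale high 27, at 188 CPM, lay above the low-load median of 181 CPM, and 0 lay below every low-load goat. The log2 fold change, from the TMM scale, was -0.19 ± 0.16 (SE), with an edgeR adjusted p of 0.9999.

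The error that edgeR assigned to the stable genes was larger than their own spread. EdgeR moderates each gene's dispersion towards that of genes of like level, and the stable genes were chosen for lying below it. With library totals the median SE of the log2 fold change was 0.17 in edgeR and 0.10 from the goats' own values, and edgeR's was larger in 200 of 200 stable genes. In the ranked genes the medians were 0.27 and 0.28, and edgeR's was larger in 48.3%. On the TMM scale, from which the intervals above come, the medians were 0.19 and 0.16 for the stable genes, and edgeR's was larger in 196 of 200.

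A test that uses only each gene's own values was therefore added after the data were seen. Group means of log2(CPM + 1) were set against those of all 924 assignments of the goats (two-sided exact permutation test), with adjustment over the 7673 ranked genes. No stable gene passed an adjusted p of 0.05 on either scale, nor did any ranked gene. The smallest exact permutation p that 924 assignments allow is 0.00216. After adjustment over 7673 genes, no single gene can pass unless very many reach that smallest value together. The outcome after adjustment was thus largely set by the design and says little about single genes. Before adjustment, 17 of 200 stable genes had an exact p under 0.05 on library totals, 13 lower and 4 higher in high-load goats. Among the ranked genes 2.96% reached that p, 2.61% lower and 0.352% higher. On the TMM scale there was 1, ENSCHIG00000011901, where 3.75% of the ranked genes reached it. The count on totals was thus not kept on the other scale, and such counts over genes of the same 12 goats are no test of the list.

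The single values followed the same line. ENSCHIG00000024140 had the smallest exact permutation p that the design allows, 0.00216, on totals and an exact p of 0.184 on the TMM scale (adjusted p = 1 on both). ENSCHIG00000011901 had an exact permutation p of 0.00866 on totals and 0.00649 on the TMM scale (adjusted p = 1 on both). Its difference was 0.28 and 0.31 on the log2 scale. For ENSCHIG00000024272 the exact permutation p was 0.0346 on totals and 0.0758 on the TMM scale, and for ENSCHIG00000027146 it was 0.0260 and 0.158 (adjusted p = 1 for both genes on both). Of these 4 genes, ENSCHIG00000011901 alone was under 0.05 on both scales. All 4 were named for their edgeR p in the same goats, so their exact p-values are no separate support.

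The spread within groups was also compared on library totals. The median SD was 0.15 in the high and 0.18 in the low group, and the SD was larger in the low group for 118 of 200, against 4044 of the 7673 ranked genes. Without low 15 the median of the low group was 0.15, and its SD was the larger in 100 of 200 stable and 2713 of the ranked genes. Without high 6 and high 27 the median of the high group was 0.11. Without all 3 goats the SD was larger in the low group for 134 of 200 stable and 6024 of the ranked genes. The same goats were dropped for every gene. Dropping goats that lie far from the others in many genes favours a narrower group without forcing it for each gene. These values were not tested.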

How the data were processed

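Whole blood RNA of 12 goats was sequenced single-end over 50 cycles. Per the labels' protocols, RNA with an integrity number above 8 was used, and libraries were made from 300 ng with a TruSeq RNA kit version 2, which does not mark strand. What the authors deposited are unnormalized read counts per Ensembl goat identifier, in 1 file per goat. The submitters' processing notes name TopHat, HTSeq, FastQC and DESeq2. Their versions, the genome build and how reads were counted were not given in the sources used here. The 5 HTSeq summary lines name no gene and were left out: 31.2% to 36.6% of records had no feature, 0.597% to 1.34% overlapped several genes and 13.8% to 21.0% aligned at more than 1 place. Genes with near-identical copies are thus under-counted.

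The rule for the stable genes used CPM from library totals and a pseudocount of 1. The members, lists and alternatives were chosen with earlier results of these data known. High against low proviral load was tested with edgeR 4.0.16 (R 4.3.3): filterByExpr with a minimum count of 10, TMM factors, robust quasi-likelihood fit, Benjamini-Hochberg adjustment over 12941 genes, threshold 0.05, intervals from the unshrunk coefficient and its SE. All 200 stable genes passed the filter. Labels give no batch, and each replicate is a separate goat. Genes are named by rule: the 2 with the smallest SD and, by p, the first 2 higher and 2 lower in high-load goats. Other names are marked as chosen after their values were seen. Gene lists and markers fixed by symbol could not be used, since 0 of 27271 identifiers matched the RefSeq table of assembly ARS1.2. Scripts were tested on simulated data. Alternatives included limma 3.58.1, DESeq2 1.42.0, other factors, filters, thinning by 1 draw and leaving out goats.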

Additional observations from a re-analysis of the deposited data

Results flagged for a closer look

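The CPM values of the 6 named genes and 5 summaries of the stable genes were screened in each group of 6 goats for a goat far from the others, 22 groups of values in all. In 1 of them the gap between the most extreme goat and its neighbour exceeded the 95% critical value of Dixon's test for 6 values. ENSCHIG00000011901 was at 48.1 CPM in high 33 and at most 44.1 CPM in the other high-load goats, a gap of 0.705 of the range. Chance alone flags about 1 in 20 such groups.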

How the results depend on the processing

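The count of 0 stable genes past an adjusted p of 0.05 was the same in every alternative run, including an adjusted p under 0.1, and without each goat in turn (0 to 0). At an unadjusted p under 0.05, against 1 gene, there were 0 with factors from the stable genes (1.57% of the tested genes) and with library totals only (1.63%). There were also 0 with no filter (3.55%) and in limma-voom without quality weights (2.76%). With quality weights limma-voom gave 12 (17.9%). There were 3 without high 6 and high 27 (7.14%) and 2 without low 15 as well (7.75%). Exact permutation on totals gave 17 (2.96% of the ranked genes). Without single goats there were 0 to 2 (1.58% to 4.66% of the tested genes). Intervals within 0.32 of 0 on the log2 scale, against 1 gene, numbered 2 with 1 CPM in 6 samples, 2 with DESeq2 size factors, 9 in DESeq2, 0 with factors from the stable genes, with totals, with no filter, thinned, and without high 6 and high 27, 44 and 3 in limma-voom with and without quality weights, 3 with upper-quartile factors, 7 without high 6, high 27 and low 15, and 0 to 3 without single goats. For these intervals the share of the tested genes is given for the main fit alone (0.0541%). The counts under other settings therefore cannot be read as particular to the stable genes. The median log2 fold change was -0.16 without high 6 and high 27, and -0.10 (without high 27) to 0.08 (without low 15) without single goats. Genes without overlap, 0 on the TMM scale, numbered 1 with totals, 1 with upper-quartile factors (0.131% of the tested genes), 5 without high 6 and high 27 (2.25%), 5 without low 15 as well (3.6%), and 0 to 1 without single goats (0.17% to 0.556%). Fewer goats make such genes more frequent by construction. The rule chose 16 of the 200 with TMM factors, 17 with DESeq2 size factors, 45 with upper-quartile factors, 62 by median absolute deviation, 30 by log2 ratios, 92 without high 6 and high 27, 48 without low 15 as well, and 128 to 190 without single goats. The median SD was 0.28 with TMM factors, 0.27 with DESeq2 size factors and 0.23 with upper-quartile factors. The median share of variance along the first principal component was 9.33% on totals. The sign of the log2 fold change changed for ENSCHIG00000000319 (-0.0098 with totals, -0.088 without high 6 and high 27, -0.045 to 0.11 without single goats) and for ENSCHIG00000014326 (0.0063 with upper-quartile factors, -0.094 to 0.10 without single goats), both near 0. The cause of these changes was not tested. The difference in the summed read share stayed below 0 in all alternatives run and shrank from -0.0854 to -0.0324 percentage points without high 6 and high 27, -0.0355 without low 15 as well and -0.0308 with the 100 most abundant genes left out of the total. It was -0.102 to -0.0519 without single goats. Settings without the 3 goats together, exact permutation and the component on totals were chosen after the data were seen. No paired analysis was possible because no goat number occurs in both groups.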
